A study of Mus musculus with 12 samples.

Results

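Ccn1, Nuak2 and Crim1 are target genes of the transcriptional coactivators YAP and TAZ. All probes whose only gene symbol in the platform annotation was one of these 3 names were taken, with Cyr61 as the older symbol of Ccn1. This gave 3 of the 28704 probes on the array, 1 for each gene: probe 357 for Ccn1 (Entrez gene 16007), probe 19741 for Nuak2 (74137) and probe 23050 for Crim1 (50766). The genes were chosen by their measured log2 change between shear and control samples and by whether it passed the test over all probes, so that change is given below as a description without a test. Where each probe lies in its transcript is not known here.

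The cells were MC3T3-E1, an established mouse line derived from calvaria that resembles osteoblasts. Confluent monolayers, grown with 5% serum, were put in a parallel plate chamber with medium holding 1% serum. The 6 shear samples had 5 h of pulsatile flow (1 Hz) that produced 5 dyn/cm2 on average, and the 6 control samples stayed static in the same set-up. Total RNA was labelled with Cy5 (replicates 1, 3 and 5 of each group) or Cy3 (replicates 2, 4 and 6) and measured on 6 spotted arrays, each taken to hold 2 neighbouring replicates of 1 group. Whether replicates were separate cultures is not stated, so the p-values reflect sample-to-sample spread that is possibly only technical.

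YAP and TAZ have no DNA-binding domain of their own and act on genes through TEAD transcription factors. The Hippo kinases LATS1 and LATS2 phosphorylate both coactivators and keep them in the cytoplasm, and spread cells, stiff substrates and actin tension are known to favour their entry into the nucleus. CCN1 (CYR61) is a secreted matrix-associated protein that binds integrins, NUAK2 is a kinase related to AMPK that acts on actomyosin through the myosin phosphatase, and CRIM1 is a membrane protein with cysteine-rich repeats that binds bone morphogenetic proteins (BMPs).

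The promoters of 2 of the 3 genes, Ccn1 and Crim1, were in the RefSeq promoter table (build GRCm38.p6), which covers 250 bases before and 50 bases after a gene's start. They are shown because the genes share a class of upstream regulator. Capitals mark GGAATG, the core of TEAD sites, read on either strand, and both sequences run 5′ to 3′ in the direction of the gene. The Ccn1 window is chr3:145649936-145650235 on the minus strand and the Crim1 window is chr17:78199998-78200297 on the plus strand.
Ccn1: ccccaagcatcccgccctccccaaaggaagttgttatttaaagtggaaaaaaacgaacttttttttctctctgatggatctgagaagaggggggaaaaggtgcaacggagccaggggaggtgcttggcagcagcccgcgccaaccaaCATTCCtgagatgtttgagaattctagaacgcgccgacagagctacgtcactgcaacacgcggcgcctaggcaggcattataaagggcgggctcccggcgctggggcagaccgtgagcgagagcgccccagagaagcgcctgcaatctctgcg
Crim1: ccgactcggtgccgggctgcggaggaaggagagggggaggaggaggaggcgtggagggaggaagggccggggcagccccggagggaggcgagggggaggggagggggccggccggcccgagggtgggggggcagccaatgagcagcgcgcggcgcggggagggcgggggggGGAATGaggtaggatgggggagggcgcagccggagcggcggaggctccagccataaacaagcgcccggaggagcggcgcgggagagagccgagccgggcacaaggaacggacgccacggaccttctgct

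Each of these windows held the core once. In the Ccn1 promoter it lay on the opposite strand, as CATTCC at positions -103 to -98 from the start, and in the Crim1 promoter on the gene's own strand at -79 to -74. Over all 32851 promoters of the table, 14.7% held GGAATG on at least 1 strand. Of the other YAP and TAZ targets tested here, 10 had a promoter in the table and 5 of them held it (Ajuba, Amotl2, Axl, Lats2 and Ptpn14). Neither member's window held TGANTCA, a loose form of the AP-1 motif with any base at N. Of all promoters, 7.81% held this loose form. Neither window held a CArG box, the motif of serum response factor (SRF), which 1.63% of promoters held. The G and C content of the Ccn1 window was 57.0% and that of the Crim1 window 76.0%, and 96.9% of promoters had a lower content than the latter. These matches describe the letters in the window only.

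Signals are given as log2 of a spot's net fluorescence over its sample's median in the same block of the array, so that 0 is the block median and 1 is a doubling. Ccn1 lay at 1.69, 2.31, 1.61, 1.72, 1.80 and 3.31 in control replicates 1 to 6. In shear replicates 1 to 6 it lay at 4.32, 4.07, 4.97, 4.68, 4.54 and 4.69. All 6 shear samples were above all 6 control samples, with 0.75 between the highest control and the lowest shear value. Control replicate 6 was the highest control sample, well above replicate 2, which came next. The means were 2.07 ± 0.66 (SD, n = 6) in control and 4.54 ± 0.31 (n = 6) in shear samples. The log2 change was 2.47 ± 0.48 (SE), or 5.54-fold.

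Nuak2 was the steadiest of the 3 genes. Its log2 signals were -0.52, -0.48, -1.22, -0.95, -0.91 and -0.96 in control replicates 1 to 6. They were 0.59, 0.56, 0.91, 0.85, 0.65 and 0.81 in shear replicates 1 to 6. Every control sample thus lay below its block median and every shear sample above it, and the groups were 1.05 apart at their nearest. The means were -0.84 ± 0.29 (SD, n = 6) and 0.73 ± 0.15 (n = 6), a log2 change of 1.57 ± 0.23 (SE), or 2.97-fold. The SD of its shear samples was small for this array, since 4.70% of the 17080 probes measured in all samples had a smaller one, while 29.7% had a smaller SD in control samples.

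Crim1 changed least, and its groups overlapped. The control replicates 1 to 6 gave log2 signals of -0.72, -1.03, -0.86, -1.65, -0.58 and -0.67. The shear replicates 1 to 6 gave 0.02, -0.86, 0.45, 0.26, 0.21 and -0.70. Shear replicates 1, 3, 4 and 5 lay above all control samples, while shear replicates 2 and 6 lay among them. The means were -0.92 ± 0.39 (SD, n = 6) and -0.10 ± 0.54 (n = 6), a log2 change of 0.81 ± 0.33 (SE), or 1.76-fold. Among the 17080 probes measured in all samples, 84.9% had a smaller SD in shear samples than Crim1 and 46.2% a smaller one than Ccn1. In control samples these shares were 55.6% and 88.9%.

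**Figure D1:**
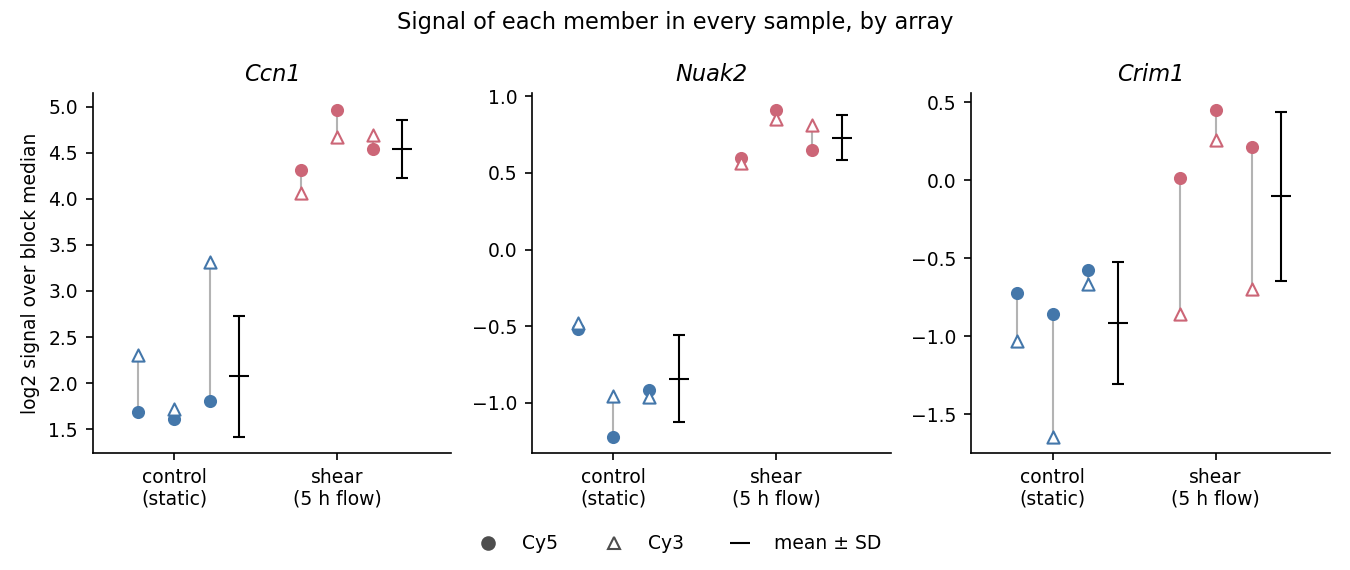
The log2 signal over the block median is plotted for each sample, with 1 panel per gene and its own vertical axis; filled circles are Cy5 samples, open triangles Cy3 samples, grey lines join the samples taken to share an array, and black bars give the mean ± SD (n = 6). Control and shear samples are apart for Ccn1 and Nuak2, while Crim1 in shear replicates 2 and 6 (-0.86 and -0.70) lies within the control range.

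Against all probes, the change of Ccn1 was the 28th highest of 21883 tested, that of Nuak2 the 205th and that of Crim1 the 1615th. Higher changes than theirs were found for 0.123%, 0.932% and 7.38% of the tested probes. With p-values from limma adjusted over all probes by the Benjamini-Hochberg method (threshold 0.05), 310 probes were called higher under shear, or 1.42%, and 44 called lower, or 0.201%. Ccn1 and Nuak2 were among those called higher and Crim1 was not, as known when they were picked, so nothing is read from this count. Groups that did not overlap, with shear higher, were found for 6.52% of the probes measured in all samples, among them Ccn1 and Nuak2, and with shear lower for 1.18%. The median change of all tested probes was 0.10. It was -0.02 both with samples centred on the probes measured in all of them and with cyclic loess, where 67.5% and 70.0% of the calls were higher, against 87.6% in the scaling used here.

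**Figure D2:**
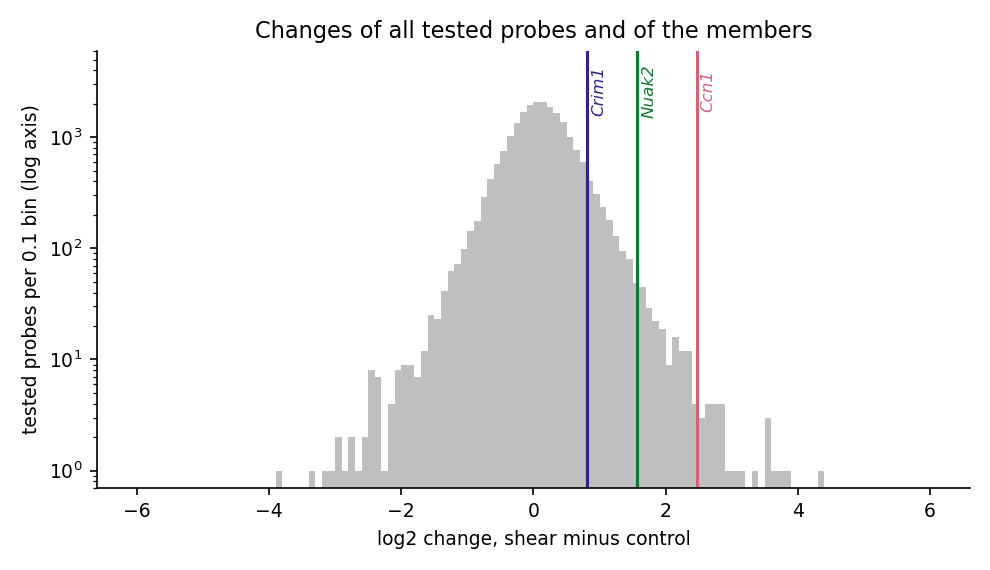
The histogram counts the 21883 tested probes by log2 change, shear minus control, in bins of 0.1, on a log axis, and vertical lines mark the 3 genes. Crim1 (0.81) lies on the right shoulder, Nuak2 (1.57) further out and Ccn1 (2.47) near the right end, with 0.123% of the probes beyond it.

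The fluorescence behind these values could be read back from the files. The net fluorescence of the Ccn1 spot was 1175 to 5364 in control and 4464 to 22655 in shear samples, while the brightest spot of a sample reached between 31680 and 65483. The Nuak2 spot gave 185 to 475 in control and 431 to 2157 in shear samples, and the Crim1 spot 85 to 347 and 125 to 1194. Before division by the block median, the ranges of both groups overlapped for all 3 genes. Samples differed in overall brightness, with medians of 243 to 868, and Ccn1 and Nuak2 were apart only after the division. All 3 signals lay above their sample's 5th percentile, which was -2.87 to -2.18.

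The choice of genes did not use the dye. Crim1 was higher in Cy5 than in Cy3 on 6 of 6 arrays, by 0.09 to 0.91. The dye difference of Crim1 was 0.53 ± 0.13 (SE; limma with Benjamini-Hochberg adjustment over all probes, adjusted p = 0.0300), where 8.56% of all probes were called higher in Cy5. Of the probes measured in all samples, 21.3% were higher in Cy5 on every array. The call was lost under both other centrings that moved the overall median, at adjusted p = 0.0781 and 0.0789 (limma), and without any 1 of the 6 arrays, at adjusted p from 0.0519 to 0.0845. It was also lost without control replicate 4 or 5 or shear replicate 1, 2, 3, 5 or 6 alone. Shear replicates 2 and 6, where Crim1 was low, were both Cy3 samples, and their Cy5 partners on the same arrays lay 0.87 and 0.91 higher. Shear replicate 4, the third Cy3 sample, was 0.19 below its partner. Each condition had 3 samples in each dye, so the dye difference does not enter the mean change.

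For Ccn1 the dye difference, Cy5 minus Cy3, was -0.31 ± 0.19 (SE) and did not pass (limma, adjusted p = 0.265). All 3 control arrays were higher in Cy3, by 0.11 to 1.51, and 2 of 3 shear arrays were higher in Cy5, by 0.25 and 0.29. The gap of 1.51 was on the array of control replicates 5 and 6, where replicate 6 (Cy3) was the highest control sample. Without control replicate 6 the dye difference of Ccn1 was -0.07. The change was 2.91 in Cy5 samples and 2.03 in Cy3 samples, a difference of 0.88 ± 0.31 (SE) in the interaction of dye and shear. That interaction had an unadjusted p of 0.0138 and adjusted p = 0.936 over all probes (limma, Benjamini-Hochberg). No probe of the array passed it (0.00% called), and 1032 probes (4.72%) had an unadjusted p under 0.05 in limma. Nuak2 showed a dye difference of -0.06 ± 0.09 (SE), with adjusted p = 0.692 (limma). Its changes were 1.60 in Cy5 and 1.54 in Cy3 samples, and the 2 dyes of an array differed by at most 0.27.

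The 3 genes followed the same order over the shear arrays. The array of shear replicates 3 and 4 was highest for each gene, with means of 4.82 for Ccn1, 0.88 for Nuak2 and 0.35 for Crim1. That of replicates 5 and 6 came next (4.61, 0.73 and -0.24), and that of replicates 1 and 2 was lowest (4.19, 0.58 and -0.42). In control the array of replicates 3 and 4 was lowest for each gene, at 1.67, -1.09 and -1.25. This pattern was common: 21.8% of the 17080 probes had the same order of shear arrays, 59.4% had that control array lowest, and 11.7% had both.

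Genes with the most similar pattern were taken as those with the smallest root mean square difference over the 12 samples, each probe centred on its own mean, among 12629 probes with a gene name. The shear change was left in, so a small difference partly restates the change by which the members were chosen. The neighbours below changed by 2.0 to 2.7 for Ccn1, 1.31 to 1.62 for Nuak2 and 0.61 to 0.85 for Crim1. Shared regulation was not tested. For Ccn1 the nearest were Pvr (0.42), Ccdc86 (0.44), Plaur (0.47), Utp18 (0.48) and Csf1 (0.49), on the log2 scale, against a median difference of 1.31 over all these probes. Pvr encodes the poliovirus receptor, a cell adhesion protein, Plaur the urokinase receptor and Csf1 the macrophage colony-stimulating factor. For Nuak2 they were Fam91a1 and Taf1d (0.18 each), Pno1 (0.19), Cdc73 and Glrx5 (0.20 each), against a median of 0.83. For Crim1 they were Shc1 (0.20), Nop9 and Gnai3 (0.21 each), B4galt2 and Rsl24d1 (0.22 each), against a median of 0.61. Other probes of some of these neighbours gave quite different changes, for example -1.58 for 1 of Shc1 and -0.31 for 1 of Utp18.

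Of 26 further YAP and TAZ targets listed, 16 had a named probe and 14 could be tested, each on 1 probe. None passed over all probes in either direction by limma (adjusted p), where 1.60% of named genes passed higher and 0.190% lower. Of all tested named genes, each on 1 chosen probe, 11.2% were higher at an unadjusted p under 0.05 (limma). In the list, 2 of the 14 had an unadjusted p under 0.05, both higher. These were F3, which encodes tissue factor, with a log2 change of 1.77 ± 0.65 (SE), and Arhgef17, with 1.06 ± 0.35. Their adjusted p-values were 0.211 and 0.154 (limma, Benjamini-Hochberg). The 3 other probes of Arhgef17 gave -0.44 to 0.06.

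F3 lay at 1.65, 0.39, 0.67, -0.51, 1.13 and 1.80 in control replicates 1 to 6. In shear replicates 1 to 6 it lay at 2.70, 2.91, 2.30, 3.15, 2.86 and 1.85. The groups did not overlap, yet shear replicate 6 was only just above control replicate 6, and the control samples were widely spread. Arhgef17 lay between -0.04 and 1.67 in control and between 1.39 and 2.45 in shear samples, with an overlap through control replicate 2.

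The remaining 12 targets were between -0.62 and 0.44. The lowest was Axl, a receptor tyrosine kinase, at -0.62 ± 0.31 (SE, adjusted p = 0.381 by limma), and its other probe gave 0.23. Lats2, the kinase that restrains YAP and TAZ and is itself one of their targets, was at 0.44 ± 0.24 (adjusted p = 0.434, limma). Its other tested probe gave 0.08. Fjx1 was at 0.41 ± 0.31. Igfbp3, an insulin-like growth factor binding protein, was at 0.21 with its other probe at -0.78. Amotl2 (-0.15), Tgfb2 (-0.16), Ccdc80 (-0.31) and Ajuba (-0.40) lay below 0, but the other probes of Tgfb2 gave 0.58 to 0.70 and that of Ajuba 1.07. The median of the 14 was 0.09, close to the 0.10 of all tested probes, with 9 of 14 above 0. With cyclic loess the median was -0.10 and 5 of 14 lay above 0. The list's other classical members, such as Ccn2 and Ankrd1, were not analysed here.

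Upstream, 49 genes of the Hippo pathway were listed and 35 tested, each on 1 probe. Of these, 2 rose (5.71% of 35, against 1.60% of all named genes) and none fell. Frmd6 (willin), a FERM-domain protein that acts above the Hippo kinases, lay at 0.99, 1.06, 0.34, 0.39, 0.60 and 0.72 in control replicates 1 to 6. In shear replicates 1 to 6 it lay at 2.27, 2.58, 3.12, 2.94, 2.34 and 2.49, above every control sample. Its log2 change was 1.94 ± 0.25 (SE; limma, adjusted p = 0.00316), or 3.84-fold.

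Rassf1, a scaffold protein that binds the Hippo kinases MST1 and MST2, lay between -0.58 and -0.16 in control and between 1.29 and 1.97 in shear samples. The groups did not overlap, and the log2 change was 1.87 ± 0.27 (SE; limma, adjusted p = 0.00405), or 3.65-fold. Both genes were tested on their only measured probe. With the samples of 1 dye alone, Frmd6 did not pass in either dye and Rassf1 not in Cy3, at adjusted p up to 0.0590 and 0.0591 (limma). Limd1, a LIM-domain protein that binds LATS kinases, did not pass at 0.90 ± 0.25 (adjusted p = 0.0891, limma), and its 3 other probes gave changes from 1.06 to 1.51, of which 1 passed. Map4k5 did not pass on its chosen probe either, but 1 of its other probes (0.67 to 1.18) did. The same held for Csnk1e, named after its values were seen, with other probes at 0.93 and 1.09. The count of Hippo genes that passed thus rests on the probe chosen.

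The coactivators themselves did not pass. Yap1 was at -0.14 ± 0.29 (SE; adjusted p = 0.878, limma) with other probes at -0.68 and -0.39, and Wwtr1, which encodes TAZ, at 0.73 ± 0.39 (adjusted p = 0.419) with other probes at 0.31 to 0.67. Yap1 turned positive in 3 of 32 alternative settings, at most 0.11. Both genes are named here after their values were seen. The median of the 35 genes was 0.27, with 26 above 0, against 0.10 and 60.0% of all tested probes. With cyclic loess it was 0.07, with 21 above 0.

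**Figure D3:**
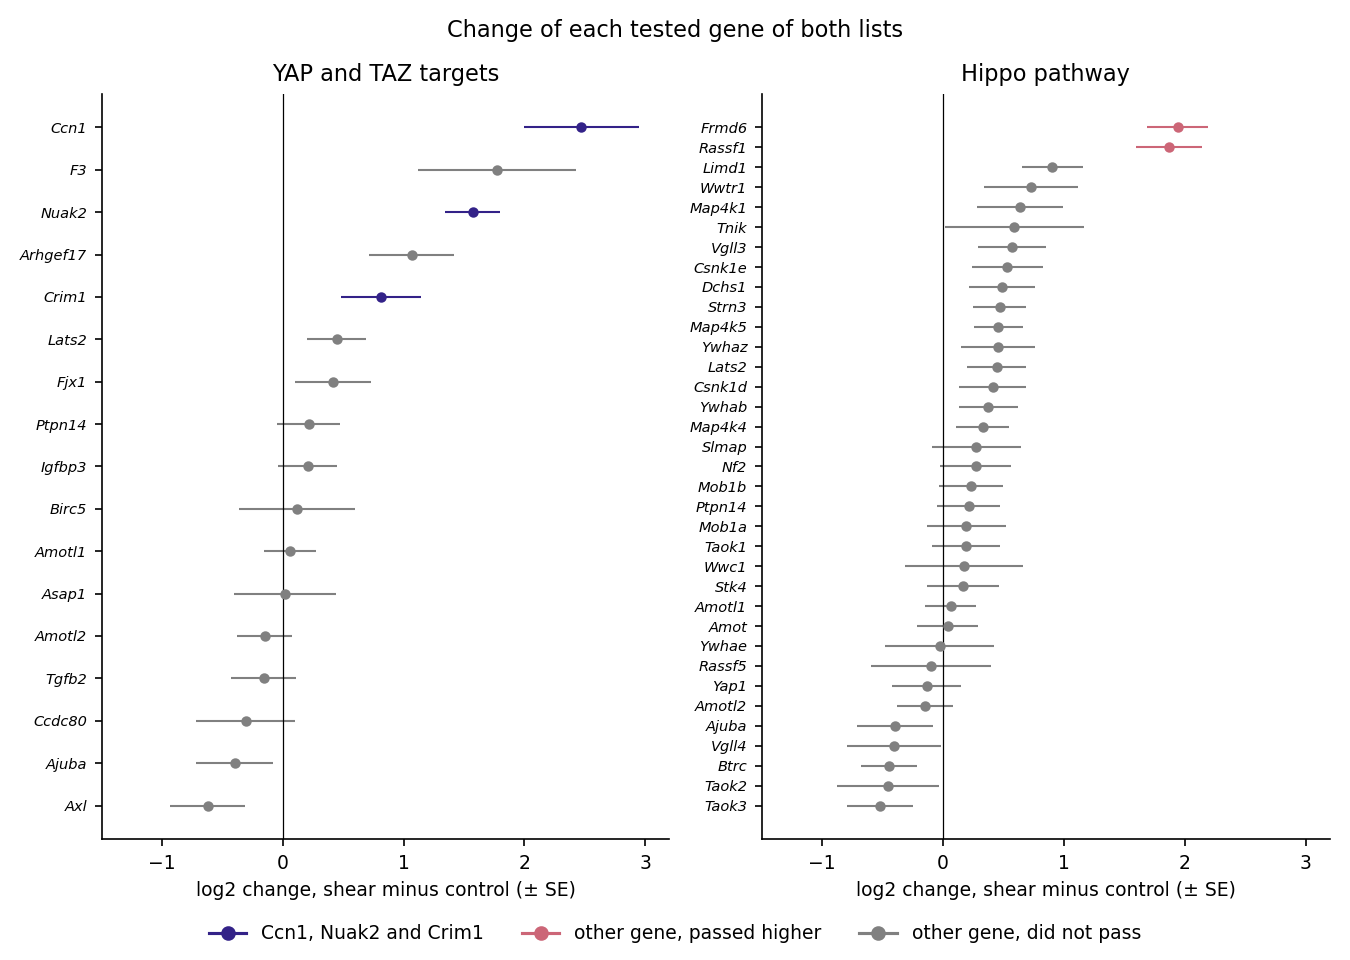
Log2 change, shear minus control, with its SE (n = 6 per group, except 4 for Tnik) for each tested YAP and TAZ target (left) and Hippo pathway gene (right), on the probe chosen for the gene. Ccn1, Nuak2 and Crim1 are in dark blue, the 2 Hippo genes that passed (Frmd6 at 1.94 and Rassf1 at 1.87) in red, and most other targets lie within 0.5 of 0.

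The relatives and partners of each gene were read in the same way. None of the 5 other CCN family genes had a named probe. Of 9 genes of CCN1 receptors, integrin chains and a syndecan, 6 were tested, none passed (limma, adjusted p; none at an unadjusted p under 0.05), and their changes ran from -0.36 (Itgb5) to 0.35 (Itgb1), named as the lowest and highest. The other probe of Itgb5 gave 1.55. Nuak1, the nearest relative of Nuak2, was at 0.20 ± 0.45 (SE; adjusted p = 0.885, limma) with other probes at 0.21 and 0.23, and it was -0.033 in Cy5 samples alone.

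Among the 11 tested kinases related to AMPK and their partners, none passed (limma, adjusted p). The share of tested named genes, each on 1 chosen probe, that were higher at an unadjusted p under 0.05 was 11.2%. Of the 11, 1 was among them, namely Strada, a partner of the upstream kinase LKB1. The other 10 lay between 0.04 and 0.25, and with cyclic loess 7 of the 11 were above 0. Of the 25 genes listed for BMP binding and signalling, 9 were tested, none passed (limma; none at an unadjusted p under 0.05), and the median was 0.00. The highest was Bmpr2, a BMP receptor, at 0.73 ± 0.35 (SE, adjusted p = 0.361 by limma).

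CCN1 is also a known target of SRF and its actin-sensing cofactors. None of the 16 tested SRF targets passed (limma, adjusted p), while 7 had an unadjusted p under 0.05, all higher. The share of tested named genes, each on 1 chosen probe, that were higher at that p was 11.2%. Those with the smallest p were the adhesion protein Vcl (vinculin) at 1.33 ± 0.32 (SE), Tagln2 at 1.31 ± 0.33 and the integrin chain Itga5 at 1.54 ± 0.42, with adjusted p = 0.0569, 0.0632 and 0.0836. Vinculin lay between 1.76 and 2.34 in control and between 2.96 and 3.71 in shear samples, and its 2 other probes gave 0.36 and 1.62, of which 1 passed. The median of the list was 0.45, with 15 of 16 above 0, against 0.10 and 60.0% of all tested probes. With cyclic loess it was 0.32, with 13 above 0, against -0.02 and 48.5%.

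**Figure D4:**
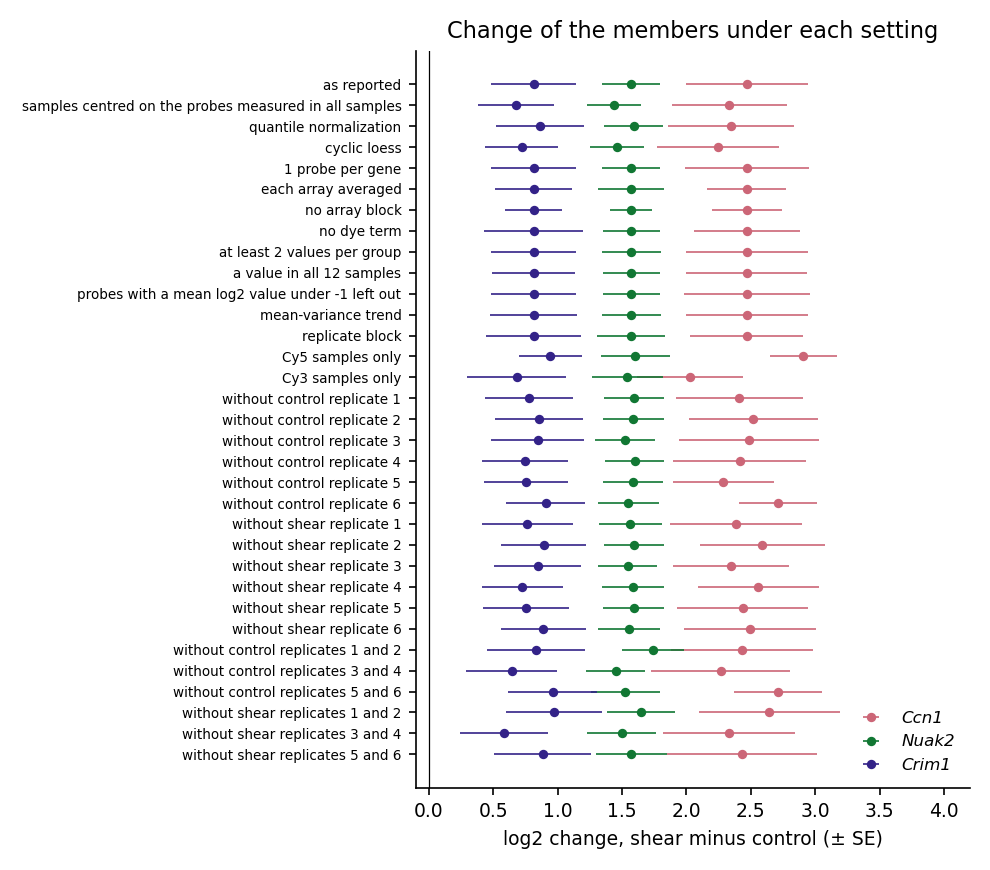
Log2 change of each gene, shear minus control, with its SE under the reported setting and 32 alternatives, 1 line per setting. Ccn1 stays between 2.03 and 2.91, Nuak2 between 1.44 and 1.74 and Crim1 between 0.58 and 0.97.

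Ccn1 was lowest with Cy3 samples alone and highest with Cy5 samples alone. Crim1 was lowest at 0.58 without shear replicates 3 and 4 and highest at 0.97 without shear replicates 1 and 2.

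Across the whole data set, between 64.2% and 82.9% of features had a value per sample, and all 3 members had one in all 12. Of 17 osteoblast markers 8 were tested, namely Col1a1, Col1a2, Sparc, Serpinh1, Lox, Dlx5, Alpl and Msx2, while the defining markers Runx2, Sp7 and Bglap were not analysed here. Alpl averaged -1.01 in control and -0.95 in shear samples and Msx2 -1.65 and -2.28, below the block median. Col1a1, Col1a2, Sparc, Serpinh1 and Lox averaged above it in both groups. Lox rose by 2.10 on the log2 scale (limma, adjusted p = 0.0219) and Dlx5 fell by 0.97 (adjusted p = 0.0479), and their part in the results was not tested. No tested marker of macrophages, endothelium, adipocytes, chondrocytes or muscle passed in limma (0 at an unadjusted p under 0.05). The log2 of the summed linear levels of 4 macrophage markers was 2.95 to 3.55 in control and 2.75 to 3.90 in shear samples. For 7 osteoblast markers this sum was 6.13 to 7.44 in control and 6.37 to 7.56 in shear samples. For 4 chondrocyte markers it was 1.93 to 3.82 and 2.465 to 3.59. These are bulk RNA samples, so fewer cells that express a gene and less RNA per cell cannot be told apart.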

How the data were processed

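The authors deposited log2 values of 28704 features in 12 samples. How spots were scanned, corrected for background or left blank is not given in the sources used here. The values proved to be log2 ratios of whole numbers to the sample's median in a block of 598 features: with 1 scale per block and sample, 100% came out whole within 0.002, in 576 of 576 combinations, which gave the net fluorescence. This scaling hides any shift shared by all genes.

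In the platform annotation 18511 probes had a single symbol, 937 had several and 9256 had none. Only the first were named, 18267 of them by Entrez number through the RefSeq gene table.

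Each probe stayed a feature of its own, since every probe of the members was wanted, and was tested with 4 or more values in each group of 6 (21883 probes, 8928 named genes). limma 3.58.1 in R 4.3.3 modelled group and dye as fixed effects, with array as a random block (correlation 0.727). Each array held 1 group, so a group rests on 3 arrays, whereas the fit counts 12 samples, and p-values can be too small. A gene of a list was read on the probe measured in most samples, then with the highest mean. Pearson correlations over features were 0.954 to 0.981 within the inferred array pairs and 0.873 to 0.915 between other samples of a group. The number of arrays limits the precision. Sums and plots used Python 3.11.15 with pandas 2.3.3.

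The members, lists and tests were chosen with earlier results of these data known. All probes of the members, all tested YAP and TAZ targets and AMPK-related kinases, and in other lists those that passed and up to 3 others by p could be named. The fit was tested on simulated data, and the outcome is not reported here. With 3 arrays per group, a gene that did not pass can still have changed.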

Additional observations from a re-analysis of the deposited data

Results flagged for a closer look

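In 84 groups of samples, for the 42 genes open to naming, 2 held 1 sample far from the rest. About 1 in 20 groups would show this by chance if the samples were independent, which those on a shared array are not. Axl was low in control replicate 2, at 2.14 against 2.71 in the next sample (gap over range 0.716). Ppp1cb, a myosin phosphatase subunit, was low in control replicate 4, at 1.52 against 2.23 (0.765). None of Ccn1, Nuak2 and Crim1 had such a sample in either group.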

How the results depend on the processing

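Over 32 alternatives the changes of Ccn1, Nuak2 and Crim1 kept their sign, which their choice largely fixed. Leaving out a sample or an array gave 2.26 to 2.71 for Ccn1, 1.45 to 1.74 for Nuak2 and 0.58 to 0.97 for Crim1.

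The 354 features called became 235 with quantile normalization, 232 with 1 probe per gene, 96 with each array averaged, 2664 with no array block, 558 with no dye term, 60 in Cy5 and 20 in Cy3 samples alone. Without 1 sample it was 180 to 368, with 203, 180 and 231 without control replicate 1, 3 and 6 and 193, 201 and 200 without shear replicate 1, 3 and 6. Without control replicates 1 and 2, 3 and 4, or 5 and 6 it was 194, 234 and 143, and without the same shear replicates 210, 75 and 108. With the replicate number as a block it was 163. Same-numbered samples of the groups did not deviate together (correlations -0.141 to 0.0868, 0 of 6 over 0.1). Each array held 1 group, so differences between arrays could hide a shared origin. Whether same-numbered samples had a common culture or day cannot be decided from these correlations.

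The dye difference of Crim1 was 0.41 with samples centred on the probes measured in all of them, 0.39 with cyclic loess and 0.53 with no array block, each no longer past the threshold. Without 1 sample it was 0.45 to 0.62. Without control replicates 1 and 2, 3 and 4, or 5 and 6 the dye difference of Crim1 was 0.57, 0.47 and 0.61, and without the same shear replicates 0.46, 0.59 and 0.45, each no longer past the threshold. The fit with no array block counts the 2 samples of an array as independent. In it 2664 of 21883 probes passed, in either direction. Those that passed there included 2 of 14 further YAP and TAZ targets, 7 of 35 Hippo genes, 1 of 11 AMPK-related and 6 of 16 SRF genes. Whether these counts exceed the share of all probes was not tested. With no dye term 1 AMPK-related and 3 SRF genes passed, with the replicate block 1 AMPK-related gene, and with a value in all 12 samples 1 SRF gene. The Hippo count was 1 in Cy5 and 0 in Cy3 samples alone. Without 1 sample or array, AMPK-related genes were 0 to 1 and SRF genes 0 to 3. Frmd6 passed in 30 of 32 settings and Rassf1 in 31, the exceptions being single dyes. The gene Yap1 was at 0.00999 in Cy3 samples, 0.11 without control replicates 5 and 6 and 0.030 without shear replicates 5 and 6. Nuak1 was at -0.033 in Cy5 samples.

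Weak spots limit what can be seen: Crim1 fell to a net fluorescence of 85 in control replicate 4.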

Other observations

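Strada, which encodes a pseudokinase that activates LKB1, the kinase above AMPK and NUAK2, gave the widest values of any gene read here. Its chosen probe lay at 0.35, 0.26, -1.63, -2.36, -1.38 and -1.28 in control replicates 1 to 6. In shear replicates 1 to 6 it lay at 4.05, 2.996, 0.02, -0.25, 4.85 and 4.80. Shear replicates 3 and 4 thus lay within the control range, while the other 4 were above it. The log2 change of 3.75 ± 0.91 (SE) had adjusted p = 0.0570 (limma, Benjamini-Hochberg), and leaving out 1 array gave changes from 2.71, without shear replicates 5 and 6, to 5.18, without shear replicates 3 and 4. Its other tested probe gave -0.57. A further Strada probe had too few values for the test. It averaged 0.93 ± 0.30 (SD) in 6 shear samples and 0.70 in 2 control samples.

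Some probes with too few values for the test were also read, and those given here were picked after their values were seen. Not all such probes were higher in shear samples. A second Stk11 probe averaged -2.22 in 2 control and -3.06 in 4 shear samples. A second probe of Vgll4, a Hippo pathway gene, had 3 values in control samples (mean -2.11) and 0 in shear samples. A further Lats2 probe had a value in 6 shear samples, at a mean of 3.88 ± 1.21 (SD), and in 2 control samples, at 3.01. The tested Lats2 probes changed by 0.44 and 0.08. Dock5, another YAP and TAZ target, had 4 values in shear samples (mean -0.29) and 3 in control samples (mean -2.07). Grem1, which encodes a secreted BMP antagonist, had a value in 6 control samples (mean -1.99) and in 2 shear samples (mean -0.17). These values were not tested.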
